A study of Homo sapiens with 11 samples.

Results

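The untreated baseline of the A375 xenograft was described from the arrays of vehicle-treated tumours alone, which were 3 of the 11 arrays of the series. Members were chosen by their sample label, 12 days of vehicle. Levels of the treated arms entered no comparison, and only their range of detected probes is given. A375 is an established human melanoma cell line that carries an activated BRAF kinase. The cells were implanted under the skin of 6-week old CD1 female athymic mice, grown, per the sample labels, to 150 to 200 mm3 over about 20 days and then given the vehicle, 1% (w/v) methylcellulose. The methods of the study give a larger volume at the start of treatment, and which applies to these tumours is not settled by the sources used here. Tumour cells in such a graft are human, whereas vessels, connective tissue and leukocytes come from the mouse, which lacks mature T cells but keeps myeloid cells. All 3 tumours derive from a single cell line, so they describe that line in this host. The other 8 arrays came from tumours treated with PLX4720, bevacizumab or both. Human transcripts were read with 47323 probes, of which 30113 had a single gene symbol and stand for 20046 genes.

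Melanoma cells occupy states along an axis. In the melanocytic state the transcription factor MITF, together with SOX10 and PAX3, drives the enzymes and structural proteins of the pigment organelle. In dedifferentiated states pigment genes are low and receptors such as AXL, EGFR or NGFR, matrix proteins and factors of mesenchymal cells are high. The BRAF mutation feeds the MEK-ERK cascade, whose output includes cyclin D1 and the feedback phosphatases and Sprouty proteins. These are background facts against which the levels below can be read.

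Between 21454 and 21952 probes per vehicle array (45.3% to 46.4%) were above background at a detection p below 0.05, and the treated arms ranged from 19767 to 21760. The 95th percentile of the signal lay 27.3 to 31.2 times above background. Levels are given as log2 of the background-corrected and quantile-normalized intensity. The lowest possible value is 4, and probes began to be called detected at about 5.71 to 5.77. A probe's brightness also depends on how well it binds, so levels of different genes are listed side by side without a fold between them. Of the 20046 genes, 11145 (55.6%) were detected on all 3 arrays, 2111 (10.5%) on 1 or 2 arrays and 6790 (33.9%) on none. These shares, 55.6% and 33.9%, are the background for every list and family below. Some genes belong to more than 1 list. Lists were chosen with earlier results of these data known, so their shares describe the lists and test nothing. Among the 11145 detected genes, pairs of arrays correlated across genes at 0.985 to 0.987, and the median SD of a gene was 0.17 (n = 3).

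**Figure D1:**
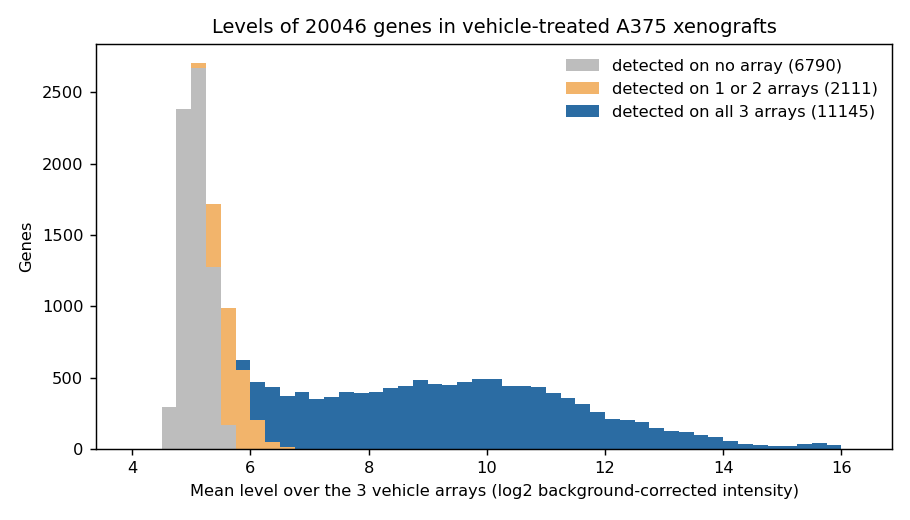
Number of genes by mean level over the 3 vehicle arrays (log2 background-corrected intensity, bins of 0.25), coloured by the number of arrays on which the gene was detected. Genes detected on no array lie below 6, and 1429 genes lie at 12 or more.

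The detected genes spread over a wide range of levels. Of the genes detected on all 3 arrays, 2912 had a mean level from 6 to 8, 3617 from 8 to 10, 3117 from 10 to 12, 1170 from 12 to 14 and 259 at 14 or more. The highest signals on the 3 arrays, before correction, were 69550, 64674 and 65433. Whether intensities near that top are compressed was not tested. The 20 genes with the largest mean level lay near the top, between 15.77 and 15.94, and their order is not interpreted. They included the translation factors EEF1A1 and EIF4A1, the ribosomal proteins RPS6, RPS12, RPL38, RPL27, RPL41, RPS29, RPS3 and RPS14, the growth-related protein TPT1 and the glycolytic enzymes GAPDH and ENO1. Structural and surface genes in the same set were VIM (vimentin, the intermediate filament of mesenchymal cells), ACTG1 (cytoplasmic actin), TGFBI (a secreted matrix protein) and F2R (the thrombin receptor). RPL13AP5, RPSAP9 and PPIAL4A completed the set. They are a pair of pseudogenes and a copy of the PPIA gene, and whether their probes read them or their parent genes is uncertain. Among 14 commonly used reference genes with a probe, all 14 were detected on all 3 arrays. ACTB (beta-actin) read 15.52, 15.86 and 15.70 and GAPDH read 15.78, 15.93 and 15.73.

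Genes of the melanocyte lineage were detected in part. Of 22 with a probe, 11 (50%) were detected on all 3 arrays, 3 on 1 or 2 arrays and 8 (36.4%) on none, shares close to those of all genes. The transcription factor SOX10 read 11.24, 11.73 and 10.94 on the 3 arrays (11.30 ± 0.40, SD, n = 3). MITF, the master regulator of the lineage, was detected on every array at 7.08, 7.71 and 6.90 (7.23 ± 0.42). Its other 2 probes had mean levels of 5.52 and 4.97, detected on 1 array and on none. PAX3, which acts with SOX10 on MITF, read between 6.77 and 7.03 on its brightest probe. Another PAX3 probe, at a mean of 5.78, passed the limit on 2 arrays, and those at 5.43 and 5.28 on none. SOX10 and MITF were highest on the second array and lowest on the third.

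Most genes of melanin synthesis and the pigment organelle were not detected on all arrays. TYR, the rate-limiting enzyme of melanin synthesis, read 4.86, 4.91 and 4.68, with detection p-values of at least 0.666. TYRP1, another melanin enzyme, read 4.81, 4.81 and 4.76. MLANA and PMEL, which encode a melanosome antigen and the fibril protein of the pigment organelle, had mean levels of 5.08 and 5.41. PMEL on the third array, at 5.72 with a detection p of 0.0571, came closest to the limit. S100B, a calcium-binding protein used as a melanoma marker, lay at 4.79 to 4.80. KIT (the stem cell factor receptor), SLC24A5 (a melanosomal exchanger) and TRPM1 (a channel) were the other undetected members. OCA2, a melanosomal transport protein, was an exception, detected on all 3 arrays at 6.38, 6.49 and 7.02. GPR143, a melanosomal receptor, passed the limit on 2 arrays and SLC45A2, a melanosomal transporter, on 1.

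Among the detected members, MLPH, which links melanosomes to myosin, read 11.67, 11.74 and 11.46, and RAB38, a GTPase of melanosome trafficking, read 10.92, 10.64 and 11.09. GPNMB, a glycoprotein of melanosomes and lysosomes, read 10.74, 10.99 and 10.39. MC1R, the melanocortin receptor, read 10.43, 10.65 and 10.22. For none of these 4 genes did any array fall near the limit of detection. DCT was not analysed here. Against the label of melanoma, SOX10, MITF, PAX3 and MC1R were detected on all arrays, MITF and PAX3 not by all of their probes. TYR, TYRP1, PMEL, MLANA and S100B, which are defining markers of the melanocyte, were at background.

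The promoters of pigment genes show which of them carry the M-box core TCATGTG, the motif that MITF binds, on either strand. Within 250 bases before to 50 after the start, it was present in 6 of the 17 lineage genes with a promoter in the RefSeq table. Over all 27305 promoters of the table the share was 2.99%, but 17 of 22 lineage genes is below the minimum of 80% set for such a comparison, which is therefore void. The 6 comprised 3 of 6 undetected genes (TYR, TYRP1 and SLC24A5), 2 of 2 detected on 1 or 2 arrays (GPR143 and BCL2A1) and 1 of 9 detected on all 3 (GPNMB). The same limit makes a comparison of these classes void, so the counts only describe the 17 genes. A 60-base stretch around the motif is shown for 2 undetected genes and for the detected one, read on the gene's strand, with the motif or its reverse complement in capitals. The stretches are chr11:89177743-89177802 (TYR), chr9:12693213-12693272 (TYRP1) and chr7:23246625-23246684 (GPNMB), all on the plus strand of GRCh38.p14.
TYR: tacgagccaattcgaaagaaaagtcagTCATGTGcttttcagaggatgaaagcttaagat
TYRP1: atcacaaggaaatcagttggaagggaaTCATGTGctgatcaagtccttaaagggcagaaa
GPNMB: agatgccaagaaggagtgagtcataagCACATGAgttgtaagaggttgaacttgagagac
TYR and TYRP1 with the motif were at background on all arrays, and GPNMB with the same motif was detected on every array. A match in these letters is a description of the window and not a site of binding.

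Genes listed for the dedifferentiated state were nearly all detected. The list also holds CDH1, an epithelial gene, so its count does not measure the state. Of 28 with a probe, 24 (85.7%, against 55.6% of all genes) were detected on all 3 arrays, 2 on 2 arrays (ZEB2 and SNAI1) and 2 on none (CDH1 and LOXL2). TGFBI read 15.76, 15.84 and 15.84, and VIM read 15.79, 15.77 and 15.79. SERPINE2, a protease inhibitor, read 15.53, 15.68 and 15.34, and the hyaluronan receptor CD44 read 14.21, 14.14 and 14.25. The receptor kinase AXL read 12.69, 12.91 and 12.64 (12.75 ± 0.14), and its second probe was also detected on all 3 arrays, at 12.35. EGFR, the epidermal growth factor receptor, read between 8.89 and 9.0, with 2 of its 4 probes detected on all arrays and 2 on none. NGFR, the marker of the neural crest-like state, was detected on every array but near the limit, at 6.87, 6.10 and 6.51. The detected members spanned from 6.49 to 15.82, with a median SD of 0.19 against 0.17 over all detected genes. Among cadherins, the mesenchymal CDH2 read 12.88, 12.43 and 12.87 whereas the epithelial CDH1 read 4.91, 4.72 and 4.70, at background on all arrays. Of 21 cadherins, 4 were detected on all arrays.

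**Figure D2:**
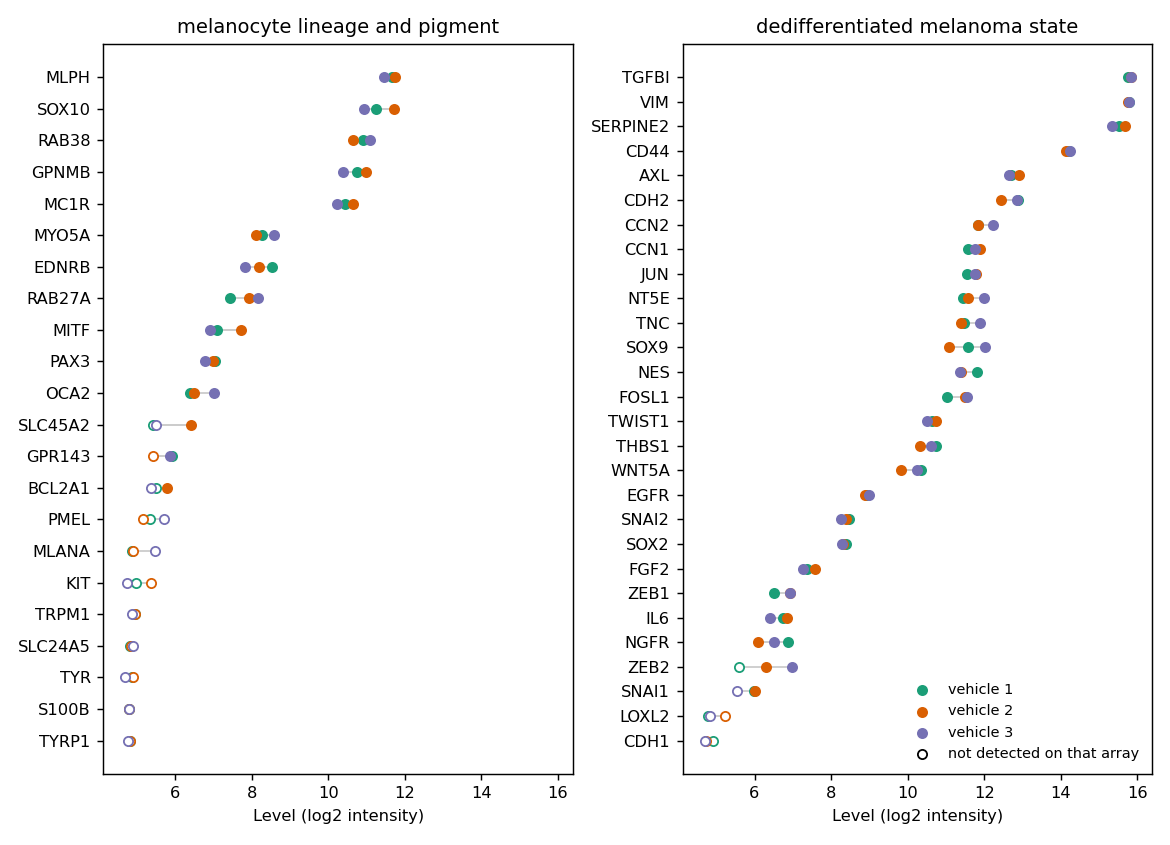
Level (log2 intensity) of each gene with a probe in the list of the melanocyte lineage (left) and of the dedifferentiated state (right) on each of the 3 vehicle arrays; filled points were detected on that array and open points were not. TYR, TYRP1 and S100B lie below 5 on all arrays, SOX10 lies between 10.94 and 11.73, and AXL between 12.64 and 12.91.

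Of 14 melanoma surface and secreted antigens with a probe, 10 were detected on all 3 arrays, and BIRC7, an apoptosis inhibitor, was undetected beside MLANA, PMEL and TYRP1. PRAME, a cancer-testis antigen used as a melanoma marker, read 11.36, 11.35 and 11.39 (11.37 ± 0.02). The surface proteoglycan CSPG4 read 11.18, 11.04 and 11.26, the checkpoint-family protein CD276 read 11.32, 10.82 and 11.20, and the secreted marker MIA read 11.04, 10.79 and 10.49. The adhesion molecule ALCAM had a mean level of 9.91. Of 24 MAGE genes, 12 (50%) were detected on all 3 arrays. MAGEA4 read 13.93, 14.05 and 13.93, and MAGEA10, MAGEC2, MAGEA6 and MAGEA12 had mean levels of 12.30, 12.19, 11.91 and 10.59. Undetected members included MAGEA2B, MAGEA8, MAGEA9, MAGEB10 and MAGEB16. Of 22 GAGE, PAGE and XAGE genes, 13 (59.1%) were detected on all arrays and 4 (18.2%) on none (GAGE10, PAGE4, XAGE3 and XAGE5), with PAGE5 at 14.29, 14.01 and 14.02 and GAGE4 at 13.78, 13.05 and 13.62. PAGE2 had a mean level of 12.88. Copies of these genes on chromosome X are nearly identical, so their probes can share transcripts and the members are not separate measurements. Of 7 SSX genes, 4 were detected on all arrays, led by SSX2 at 8.30, 7.37 and 8.39.

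Genes listed as targets and feedback inhibitors of the ERK cascade were mostly detected, and activity of the cascade itself was not tested. Of 25 target and feedback genes, 22 (88.0%, against 55.6% of all genes) were detected on all 3 arrays, 2 on 1 array and 1 on none (SPRED3). CCND1, cyclin D1, read 13.17, 13.38 and 13.67 (13.41 ± 0.25). DUSP6, the cytoplasmic phosphatase that turns off ERK, read 12.20, 11.88 and 12.20. The transcription factor ETV5 read 11.16, 11.36 and 11.28, and SPRY4, a Sprouty inhibitor of receptor signalling, read 10.60, 10.36 and 10.26. PHLDA1, IER3 and SPRED1, which are also induced by the cascade, had mean levels of 13.71, 13.57 and 12.34. Each of these genes varied by less than 0.51 between arrays. Of 17 genes of the cascade itself with a probe, 12 (70.6%) were detected on all arrays, with the adaptor SHC1 at 13.82, the kinase MAP2K1 at 12.56, PEBP1, an inhibitor of RAF, at 12.07, MAPK3 (ERK1) at 11.73 and the phosphatase PTPN11 at 11.61. KSR1, RASGRP1 and RASGRP3 were undetected.

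Receptor tyrosine kinases were detected about as often as all genes. Of 38 with a probe, 19 (50%) were detected on all arrays, 5 on 1 or 2 and 14 (36.8%) on none. After AXL, the receptors with the largest levels were RYK (a WNT co-receptor) at 11.57, 11.78 and 11.58, PDGFRB at 10.87, 10.47 and 10.81, and the collagen receptors DDR1 and DDR2, with mean levels of 10.70 and 10.51. MET (the HGF receptor) read 10.31, 10.29 and 10.51 and ERBB3 (the neuregulin receptor) 10.08, 10.27 and 9.80, named here after their values were seen. ERBB4, FGFR2, FLT1, FLT3 and FLT4 were among those undetected. In the PI3K-AKT-mTOR list 13 of 15 genes (86.7%) were detected, led by the GTPase RHEB at 12.98 and the kinase AKT1 at 12.11. INPP4B, MTOR and PDPK1 followed at 10.53, 10.22 and 9.92. RICTOR, a subunit of the second mTOR complex, was the member not detected on any array.

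Genes induced by low oxygen were detected with few exceptions. Of 32 with a probe, 30 (93.8%, against 55.6%) were detected on all 3 arrays. LDHA (lactate dehydrogenase) read 15.56, 15.65 and 15.60, and the stress protein NDRG1 read 14.74, 15.03 and 15.13. The glycolytic kinase PGK1 read 14.62, 14.68 and 14.77, and the mitophagy receptor BNIP3 read 14.13, 14.34 and 14.25. DDIT4, an inhibitor of mTOR, had a mean level of 14.03. EGLN3, an oxygen sensor, was the member not detected on any array, at 4.84, 4.94 and 4.93, and PDK1, which limits the entry of pyruvate into mitochondria, was detected on the third array alone at 5.52, 5.71 and 6.10. Of 25 glycolytic genes, 22 (88.0%) were detected on all arrays, and the undetected GAPDHS and PKLR are isoenzymes of sperm and of liver and red cells. After GAPDH, ENO1 and LDHA, the enzymes ALDOA and TPI1 had mean levels of 15.33 and 15.23. All 16 cholesterol synthesis genes with a probe were detected, led by ACAT2 at 11.90, 11.93 and 11.83, HMGCS1 at 11.51, 11.78 and 11.94 and INSIG1 at a mean of 11.72. SQLE and NSDHL followed at 11.39 and 10.98.

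Of 25 angiogenic factors and inhibitors, 21 (84.0%) were detected on all arrays. VEGFA, the ligand that bevacizumab binds, read 9.73, 9.97 and 9.93 (9.88 ± 0.13). Another of its probes had a mean level of 8.25 and the remaining one, at 4.76, was at background. VEGFB read 13.87, 13.94 and 13.62, the peptide ADM (adrenomedullin) 13.59, 13.71 and 13.93 and ANGPTL4 13.27, 13.42 and 13.27. VEGFC, the ligand of the lymphatic receptor, read 11.19, 11.67 and 11.56, and the chemokine CXCL8 11.44, 11.28 and 11.42. HGF and VEGFD were detected on no array.

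Proliferation genes were detected almost without exception. All 30 mitotic genes were detected on all arrays, as were all 6 MCM helicase subunits and 27 of 30 S-phase genes. CDC20, which activates the anaphase-promoting complex, read 13.96, 13.99 and 14.05, and its partner UBE2C read 13.75, 13.89 and 13.99. PTTG1 (securin), the spindle protein PRC1 and TOP2A (topoisomerase II) had mean levels of 13.24, 12.39 and 12.06. MCM7, a helicase subunit, read 13.81, 14.03 and 13.87, while UHRF1, TYMS, FEN1 and RRM1 had mean levels of 12.93, 12.82, 12.73 and 12.68. CCNE2 (a cyclin of S-phase entry) was the member of the S-phase list not detected on any array. MKI67, the gene of the Ki67 antigen, read 6.05, 6.73 and 7.44 on its 1 probe, the lowest mean (6.74) and an SD of 0.70, against a median SD of 0.17 over the mitotic list.

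The cell cycle inhibitor CDKN1A (p21) read 13.24, 13.66 and 13.53. CDKN2A, the melanoma tumour suppressor of the INK4 locus, was detected through 1 of its 3 probes at 7.04, 7.01 and 7.05, and its neighbour CDKN2B read 5.96, 6.52 and 5.77. TERT, the catalytic subunit of telomerase, was not detected by either probe (5.14, 5.43 and 4.85 on the brighter one), whereas DKC1, which binds the telomerase RNA, read 13.20, 13.06 and 13.23. The telomere protein TERF2, RBL2 and CDKN1B (p27) had mean levels of 10.54, 10.48 and 10.07. Of 16 BCL2 family genes, 13 (81.2%) were detected on all arrays. The survival members BCL2L1 and MCL1 read 12.17, 12.22 and 12.44, and 11.95, 11.66 and 11.75. BAX, a killer member, had a mean level of 11.14, BCL2L2 of 10.91 and BAD of 10.83, and HRK was not detected.

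Interferon-stimulated genes were detected far more often, by count, than interferon genes. Of 38 stimulated genes with a probe, 35 (92.1%, against 55.6%) were detected on all arrays, 3 on 1 or 2 arrays and 0 on none. The membrane proteins IFITM3 and IFITM2 had mean levels of 14.24 and 14.17, the nuclease ISG20 of 12.25, IFI6 of 11.90 and IFI44 of 11.41. Of 21 interferon genes, 18 (85.7%) were detected on no array, among them IFNA1, IFNA10, IFNA13, IFNA14 and IFNA16. IFNE, an interferon of epithelia, was the member detected on all arrays, at 7.46, 8.31 and 8.18. These lists share no member, and mouse interferons were not analysed here.

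Antigen presentation was largely in place. Of 26 genes, 22 (84.6%) were detected on all arrays. B2M, the light chain of HLA class I, read 14.80, 14.30 and 14.64, and HLA-B read 11.39, 11.89 and 11.42. The proteasome subunit PSMB10 had a mean level of 13.19, the aminopeptidase ERAP2 of 12.62 and the chaperone CALR of 11.48. All 5 class I heavy chain genes with a probe were detected, namely HLA-B, HLA-E, HLA-F, HLA-C and HLA-G. Of 15 class II genes, 7 (46.7%) were detected on all arrays, with HLA-DPA1 at 10.70, 10.91 and 10.24 and HLA-DRA at 10.11, 9.98 and 9.32. HLA-DRB3, HLA-DMA and HLA-DRB4 had mean levels of 9.45, 9.05 and 8.28. HLA-DOA, HLA-DOB, HLA-DQA2, HLA-DQB1 and HLA-DRB1 were undetected. CIITA, the class II transactivator, was detected on no array (4.91, 5.62 and 5.05), whereas CD74, the class II chaperone, read 10.86, 11.47 and 10.29. HLA genes differ between people, so a probe designed on another allele can read an allele of A375 weakly, and detection here depends on that match.

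Ligands of lymphocyte checkpoints were mixed. Of 21, 10 (47.6%) were detected on all arrays, and 9 (42.9%), including CD80, ENTPD1, HHLA2, LGALS9 and PDCD1LG2, on none. CD274 (PD-L1) read 5.22, 5.79 and 6.53 and passed the limit on the second and the third array. NT5E (CD73), CD276, the phagocytosis inhibitor CD47, TNFRSF14 and NECTIN2 had mean levels of 11.68, 11.11, 10.18, 9.65 and 9.60. Of 40 interleukins, 12 (30.0%) were detected on all arrays, led by IL18 at 13.17, 13.46 and 13.48, IL11 at a mean of 11.63 and IL10 at 11.45, 11.55 and 11.60. IL25 and IL24 followed at 9.04 and 8.60. Of 40 chemokines 13 (32.5%) were detected on all arrays. Of 14 chemokine receptors 1, CCR6, was, at 14.93, 15.33 and 15.17. Its other 2 probes had mean levels of 5.34 and 5.15, detected on 1 array and on none, so the probes of CCR6 disagree and its level is uncertain.

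Markers of host cells were checked because the stroma of the graft is mouse and human probes can bind some mouse transcripts. In these bulk samples fewer cells of a type and less RNA per cell cannot be told apart, nor can mouse RNA bound by a human probe and human RNA. Of 21 leukocyte markers, 6 (28.6%) were detected on all arrays and 10 on none. PTPRC (CD45), the marker of all leukocytes, was not detected by any of its 4 probes (5.07, 5.06 and 5.24), and CD3E, ITGAM and ITGAX were at background. CD3D, another chain of the T-cell receptor complex, was detected on all arrays near the limit, at 6.26, 6.01 and 5.97, by 2 of its 3 probes. CD68, which many tumour lines express, read 12.20, 12.55 and 12.46. The myeloid markers AIF1, CSF1R and CD14 had mean levels of 9.09, 8.75 and 6.43. The other probes of AIF1 and CD14, at 5.44 and 4.76, were detected on no array. The log2 of the summed level of the list lay between 12.77 and 12.94 on the 3 arrays. CD68 made up most of that sum on each array, so the sum says little about the other markers.

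Of 16 endothelial and pericyte markers, 8 (50%) were detected on all arrays and 6 (37.5%) on none. The 8 detected members had a median level of 9.60, from 6.66 to 11.37. The endothelial markers CDH5, KDR and VWF were at background on all arrays, with mean levels of 4.83, 4.87 and 4.74. PECAM1 read 6.77, 7.31 and 7.27, TEK passed the limit on 1 array and RGS5 on 2. PDGFRB, a pericyte marker also found in melanoma lines, was described above. Of 13 fibroblast markers, 11 (84.6%) were detected on all arrays. COL1A1, a fibrillar collagen, read 11.85, 10.42 and 10.88 and COL3A1 read 9.31, 7.62 and 7.53, with the first array highest in both. The proteoglycans DCN and LUM read 8.21, 7.70 and 6.95, and 7.31, 7.12 and 5.96, with the third array lowest. The other LUM probe, at 4.69, was detected on no array, and no other DCN probe was detected on all arrays. COL1A2 and PDGFRA had mean levels of 6.83 and 6.77. S100A4, which is named for fibroblasts but present in many tumour cells, had a mean level of 15.52, and ACTA2 (smooth muscle actin) of 11.37.

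Markers of other tissues differed by list. No marker of skeletal muscle was detected on all arrays, with ACTA1, MYH2, CKM and DES at background. Of 8 fat markers 3 (37.5%) were detected on all arrays. PPARG, the transcription factor of fat cell differentiation, read 10.57, 10.14 and 9.64. LEP (leptin) read 7.93, 7.94 and 7.98, and its other probe, at 5.11, was detected on no array. CFD had a mean level of 6.73, whereas ADIPOQ, PLIN1 and FABP4 were undetected. Of 13 neuron markers 7 (53.8%) were detected on all arrays, a share close to that of all genes. TUBB3, a neuronal tubulin also found in tumour lines, read 13.83, 13.94 and 13.65 and ENO2 (neuronal enolase) had a mean level of 12.42, while RBFOX3 and SYP were undetected. In skin, KRT5, KRT14 and KRT1 were undetected, while KRT10 had a mean level of 12.89. Among red cell genes HBB and HBA1 were undetected on all arrays and ALAS2 passed the limit on 1. HBA2 (alpha-globin) read 12.49, 10.34 and 11.73 on 1 probe, and 5.93 on average on its other probe. Of 12 liver genes 3 were detected on all arrays, including SERPINA1 at 8.93 and ALB at 7.24. The other ALB probe, at 5.06, was detected on no array. APOA1 was undetected and TTR passed the limit on 1 array.

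**Figure D3:**
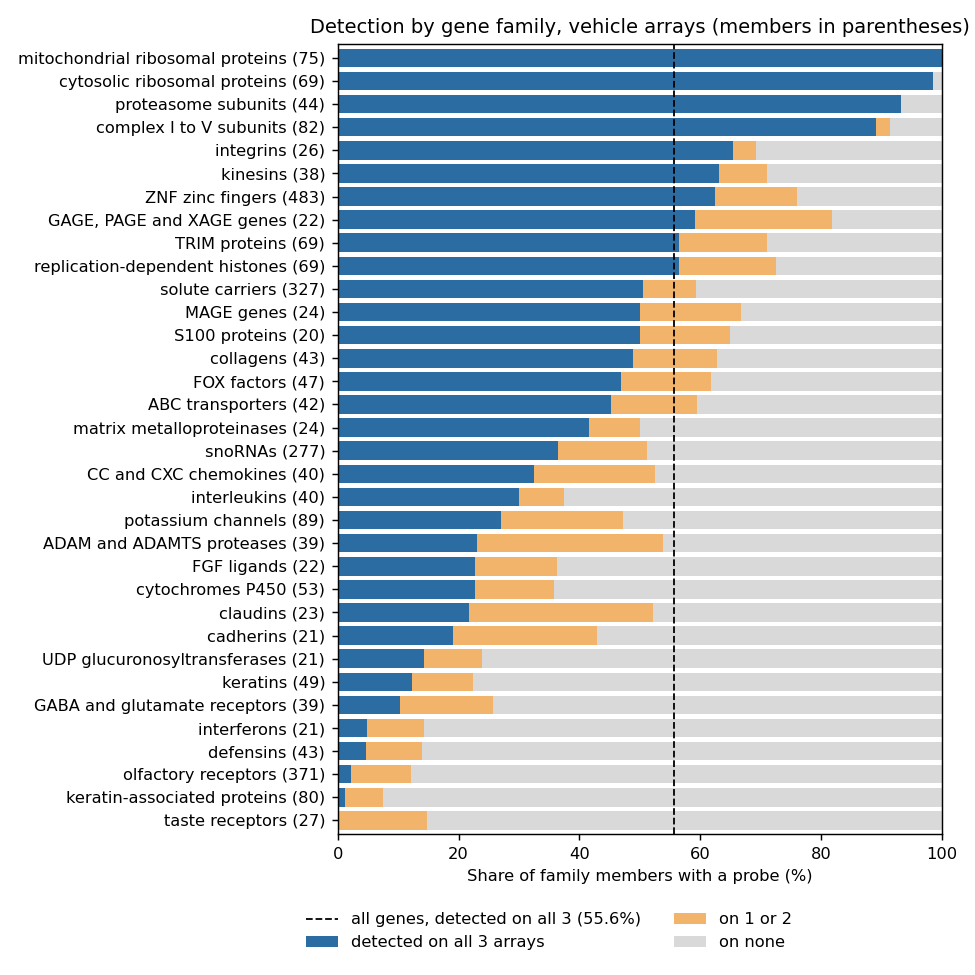
Share of the members of each family (in %, families with at least 20 members with a probe, number of members in parentheses) that were detected on all 3 vehicle arrays, on 1 or 2, or on none. The dashed line marks the 55.6% of all genes; mitochondrial ribosomal proteins stand at 100% and olfactory receptors at 2.16%.

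Across families, detection ranged from complete to nearly absent. All 75 mitochondrial ribosomal proteins, all 13 EIF3 subunits, all 16 cytosolic tRNA synthetases and all 8 subunits of the CCT chaperonin were detected on all 3 arrays. Of 69 cytosolic ribosomal proteins 68 were, with a median level of 15.51, near the top of the intensity range, and a median SD of 0.09. RPL10 was the exception, at background on both of its probes, and was chosen for mention as such. Of 44 proteasome genes 41 (93.2%) were detected. The undetected PSMA8 and PSMB11 are the subunits specific to testis and thymus, and PSMF1 is a regulator. Of 82 subunits of complexes I to V, 73 (89.0%) were detected, and 7 were detected on no array. Of the 7, COX4I2, COX6A2, COX6B2, COX7A1 and COX8C are tissue-restricted isoforms, and NDUFA5 and NDUFS6 are subunits of complex I.

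Families of specialised tissues lay at the other end. Of 371 olfactory receptors 8 (2.16%) were detected on all arrays and 326 (87.9%) on none, with levels of 5.95 to 7.58 for the 8. They were led by OR11H1, OR9A4 and OR9Q2 at mean levels of 7.58, 7.39 and 6.93. Of 27 taste receptors 0 were detected on all arrays and 4 on 1 or 2. Of 80 keratin-associated proteins of hair 1 was (KRTAP10-11, at 6.76), and of 43 defensins 2 were. Keratins were detected in 6 of 49, namely KRT10, KRT80, KRT18, KRT8, KRT7 and KRT15, with mean levels from 6.83 to 12.89. Cytochromes P450 were detected in 12 of 53 (22.6%) and glucuronosyltransferases in 3 of 21 (14.3%). GABA and glutamate receptors were detected in 4 of 39 (10.3%). At the limit of 0.05 a probe with no transcript passes on 1 array in 20 by definition, which is why detection on all arrays was used.

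Developmental regulators were detected member by member. Of 10 HOXB genes 8 were detected on all arrays, and of 9 HOXC genes 6, led by HOXC6 at 12.07, 12.13 and 11.95 and HOXB2 at 11.11, 11.03 and 11.03. HOXB1, HOXB9 and HOXC12 were undetected. Of 9 HOXD genes 5 were detected, at 6.14 to 7.61. Of 19 SOX factors 10 (52.6%) were detected, with SOX9 at 11.57, 11.07 and 12.01 and SOX10 opposite in order, highest where SOX9 was lowest. SOX4, SOX18 and SOX11 had mean levels of 10.35, 9.70 and 9.15, and SOX2 read 8.38, 8.31 and 8.29. Of 47 FOX factors 22 (46.8%) were detected, with FOXD1 at 12.54, 12.68 and 13.05. Of 483 ZNF zinc finger genes 302 (62.5%) were detected. Stem and germ cell genes were detected in 2 of 12, ZFP42 at 9.43 and SOX2, with POU5F1, NANOG, DAZL and DDX4 undetected.

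Receptors for WNT proteins were more often detected than the ligands, by count, 9 of 10 frizzled genes (all but FZD10) against 6 of 19 WNT genes. WNT5A, a ligand linked to invasive melanoma, read 10.36, 9.83 and 10.24, and FZD2 had the largest level of its family at 10.80. Of 22 FGF ligands 5 (22.7%) were detected, at 6.24 to 7.80. Matrix and adhesion families ranged from below to above the 55.6% of all genes. Integrins were detected in 17 of 26 (65.4%), led by ITGB1 at 13.43, ITGA3 at 12.79 and ITGB5 at 12.60. Laminins were detected in 7 of 10, led by LAMA5 at 14.20. Collagens were detected in 21 of 43 (48.8%), led by COL6A1 at 12.21, COL4A1 at 11.84 and COL5A1 at 11.60. Matrix metalloproteinases were detected in 10 of 24 (41.7%) and claudins, the seals of epithelia, in 5 of 23 (21.7%). ADAM and ADAMTS proteases were detected in 9 of 39 (23.1%). Among S100 proteins, 10 of 20 were detected, with S100A10, S100A4 and S100A6 at 15.70, 15.52 and 15.01.

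By class of transcript, 10613 of 17775 protein-coding genes (59.7%) were detected on all arrays, 169 of 798 long non-coding RNAs (21.2%), 101 of 279 snoRNAs (36.2%) and 32 of 561 microRNA genes (5.70%). The mature forms of microRNAs were not analysed here. MIR221, a microRNA gene active in melanoma, read 9.27, 9.70 and 9.91. It has 1 probe and was chosen after its value was seen.

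Promoters of the detected genes were rich in CG dinucleotides. Of the 11145 genes detected on all arrays, 9032 (81.0%) had a promoter in the RefSeq table. Their 300-base windows held a median of 26 CG dinucleotides (quartiles 18 and 34), against 14 (3 and 28) over all 27305 promoters of the table. The GC box GGGCGG, on either strand, was present in 69.9% against 44.6%, CCAAT in 37.6% against 35.7%, and the TATA box TATAAA in 5.72% against 12.0%. The AP-1 site TGACTCA was present in 3.12% against 4.92%, and the E-boxes TCACGTG and TCATGTG in 6.16% against 3.82% and in 1.76% against 2.99%. The table of all promoters also holds genes that the array does not measure. For genes detected on no array the comparison is void, because 66.7% of them had a promoter in the table, below the 80% set as the minimum. The promoter of PGK1, detected at 14.62 to 14.77, shows the CG-rich type. The 250 bases before its start, chrX:78103998-78104247 on the plus strand of GRCh38.p14, are given with the 32 CG dinucleotides in capitals.
PGK1: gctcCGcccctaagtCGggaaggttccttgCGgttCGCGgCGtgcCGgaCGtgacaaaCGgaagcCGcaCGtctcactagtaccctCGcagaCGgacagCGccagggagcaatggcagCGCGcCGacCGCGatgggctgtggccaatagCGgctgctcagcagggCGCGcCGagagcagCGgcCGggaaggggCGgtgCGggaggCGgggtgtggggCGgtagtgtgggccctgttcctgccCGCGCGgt

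The arrays of the 3 tumours differed from one another in few genes. Each tumour was read on a single array, so a difference between tumours and one between arrays cannot be told apart. Of the 11145 detected genes, 8190 (73.5%) ranged by less than 0.5 on the log2 scale over the 3 arrays, 378 (3.39%) by at least 1 and 10 by at least 2. The count of 378 was 70 without background correction and 63 in the authors' normalized values. The spread fell with level. In the lowest of 5 equal groups of genes (mean level 5.80 to 7.52) the median SD was 0.27. In the highest (11.33 to 15.94) it was 0.13. Whether compression near the top of the intensity range narrows the spread there was not tested. The gene with the largest range was PIDD1, a p53-induced death domain protein, at 8.19, 10.79 and 8.01, high in the second tumour alone. The chemokine CCL2, which attracts monocytes, read 8.96, 8.74 and 6.24 and was low in the third tumour. SH3GL2 (endophilin A1) read 8.73, 6.33 and 6.03, high in the first tumour, and KISS1, a metastasis suppressor, read 9.36, 9.0 and 11.15, high in the third. BCL11B, a zinc finger factor, was low in the first tumour at 6.67, 9.05 and 8.97.

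HKDC1 (a hexokinase) and the matrix protein MFAP4 were highest in the third tumour, at 8.38 and 9.10. SPP1 (osteopontin) read 10.27, 9.75 and 8.34, TESC read 9.0, 8.28 and 7.08, and the interferon-induced IFIT1 read 9.98, 8.88 and 7.95, each lowest in the third tumour. AUTS2 read 5.86, 8.04 and 7.04, ALDH1B1 7.79, 5.85 and 7.48, and the annexin pseudogene ANXA2P1 12.03, 10.64 and 12.60. PDGFRA read 5.61, 6.74 and 7.96 on its brighter probe, which was not detected on the first array. HBA2, given above among blood genes, had a range of 2.15. In the authors' normalized values the ranges of these 15 genes were smaller, from 0.99 to 2.19, and each was highest on the same array.

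Some lists shifted together between the arrays of the 3 tumours, and here too tumour and array cannot be told apart. For each gene the level on an array was taken relative to its mean over the 3 arrays, and the median over the list is given. Over all 11145 detected genes this median was 0.00 on every array, and 33.2%, 33.2% and 33.6% of genes were lowest on the first, the second and the third array. Interferon-stimulated genes had medians of 0.18, 0.19 and -0.40, and 27 of 35 were lowest in the third tumour. MX1 read 11.45, 11.32 and 9.91, OAS2 read 9.86, 9.96 and 8.07 and IFI44L 9.64, 9.10 and 7.83, named after their values were seen. The median SD of the list was 0.45, against 0.17 for all detected genes. HLA class II genes had medians of 0.30, 0.21 and -0.48, with 6 of 7 lowest in the third tumour. The list of interferon-stimulated genes holds no class II gene.

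Fibroblast markers had medians of 0.20, 0.08 and -0.27, with 9 of 11 lowest in the third tumour. The log2 of their summed level was 15.93, 15.76 and 15.45, with 11 of 13 detected on all arrays and THY1 at background. S100A4, which many tumour cells express, made up most of that sum, and without it the values were 13.09, 12.53 and 12.45, so that the second and the third tumour were close. Leukocyte markers detected on all arrays had medians of 0.07, 0.16 and -0.22, with PTPRC at background. Genes that respond to tissue handling, such as FOS and HSPA1A, moved the same way, with medians of 0.05, 0.11 and -0.15 and 8 of 12 lowest in the third tumour. The part of host cells and of handling in the shifts of interferon-stimulated and class II genes was not tested.

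Hypoxia genes shifted by less but more evenly, with medians of -0.18, 0.02 and 0.16. Of 30, 24 were highest in the third tumour, where 34.0% of all detected genes were highest, and 26 were lowest in the first, NDRG1 and SLC2A3 (a glucose transporter, at 12.99, 13.26 and 13.50) among them. Cholesterol synthesis genes had medians of -0.20, 0.12 and 0.08, and 10 of 16 were lowest in the first tumour. The GAGE, PAGE and XAGE genes had medians of 0.39, -0.45 and 0.09, and 12 of 13 were lowest in the second tumour, though their probes share sequence. The same arrays were highest and lowest for the medians of these 6 lists in the authors' normalized values, with 1 exception, the interferon-stimulated genes, whose highest median moved from the second to the first array. No stated rule chose the 6 lists, and other lists and families shifted as well. Medians of ephrin receptors (0.14, -0.41 and 0.22) spanned more than those of interferon-stimulated genes. HOXD genes (0.30, -0.05 and -0.23), FGF ligands (0.33, -0.08 and -0.01) and HLA class I genes (-0.01, 0.20 and -0.17) spanned more than hypoxia genes. With 3 tumours these values describe the tumours measured.

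**Figure D4:**
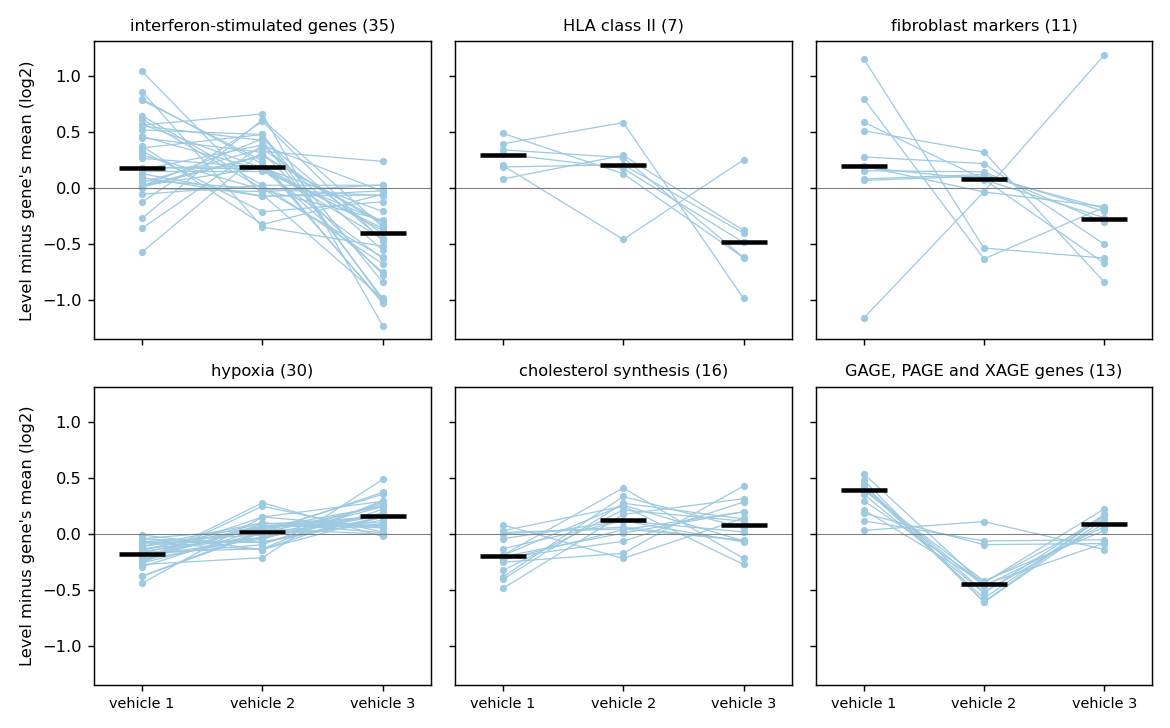
Level minus the gene's mean over the 3 vehicle arrays (log2), for each gene detected on all 3 arrays in 6 lists (number of genes in parentheses); thin lines join a gene's points and black bars are list medians. Interferon-stimulated genes have medians of 0.18, 0.19 and -0.40, and hypoxia genes of -0.18, 0.02 and 0.16.

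Different probes of a gene did not always tell the same story. Of 6691 genes with 2 or more probes, 2122 were detected on all arrays by every probe, 1428 by no probe on any array, and 1726 had a probe detected on all arrays beside one detected on none. Among the 627 genes with a level of 12 or more and 2 or more probes, 113 (18%) had a probe detected on no array. A gene counted as detected is therefore one with at least 1 probe above background. Whether that probe reads only the named gene was not tested. A gene counted as undetected is one whose probes here gave no signal above background, which is not a measurement that the transcript is absent.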

How the data were processed

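The authors labelled total RNA from frozen vehicle tumours and read each tumour on a single human expression BeadChip (HumanHT-12 v4). The deposited table of single arrays, exported with GenomeStudio 2011.01 per the submitters' processing notes, holds a linear intensity per probe that was not normalized. It also holds a deposited detection p-value, which ranks the probe against that array's own negative controls. The authors' intensity values after cubic spline normalization, deposited separately, served as an alternative. All columns of both tables belonged to samples of the series.

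The platform annotation gave a single gene symbol for 30113 of the 47323 probes, several for 8 and no symbol for 17202. Symbols of 30074 probes were updated through the gene ID to RefSeq names, which gave 20046 genes. Probe sequences and positions were not used here, and the genome build of the probes is not given in the sources used here. The mouse probes read on these tumours were not analysed here. The files name no slide or scan, so no batch was tested.

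The 3 vehicle arrays alone were background-corrected by normexp, with the moments of the negative controls inferred from the detection p-values, offset by 16, then quantile normalized, and levels are log2 values (limma 3.58.1, R 4.3.3, with Python 3.11.15 for counts and matplotlib 3.10.9 for figures). The script was tested on simulated arrays. A gene counted as detected on all 3 arrays if some probe of it had a detection p below 0.05 on each. Its level is that of its probe with the largest mean among probes detected on at least 1 vehicle array. The number of arrays, not a read depth, limits precision, and SDs are over 3 arrays. The methods call the replicates biological. No gene was compared between groups, so there is no test and no adjusted p.

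Detection was counted for 31 gene lists written from textbook knowledge and 54 families taken by symbol. Members, lists and naming rule were chosen with earlier results of these data known. Named were the 20 genes with the largest mean level, the 15 with the largest range among genes detected on all 3 arrays, up to 5 detected and 5 undetected members of each list or family described, the cell type markers and a fixed set of melanoma genes. Genes outside these rules were also named, and only some are marked as chosen after their values were seen. CD74, SLC2A3 and CD3D are among those without a mark. All 7 undetected subunits of complexes I to V were named. Alternatives were other detection limits, probe rules, normalizations and leaving out each array. Promoter sequences come from RefSeq (GRCh38.p14), 250 bases before to 50 after each gene's first listed start.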

Additional observations from a re-analysis of the deposited data

Results flagged for a closer look

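Probes with no gene symbol in the annotation stood outside every list and family above. Of the 17202 such probes, 3959 (23%) were detected on all 3 vehicle arrays, against 14847 of 30113 probes (49.3%) with 1 symbol. Of the 3959, 546 had a mean level of 12 or more. They were marked because they carry signal that the report does not use. Their transcripts were not analysed here.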

How the results depend on the processing

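Detection counts changed by less than 1.5 times under every alternative. Genes detected on all 3 arrays numbered 10306 at a detection p below 0.01 and 10646 after Benjamini-Hochberg adjustment, and 11357 to 11473 when 1 array was left out. Genes detected on none numbered 8506, 7897, and 7169 to 7269. The median SD lay between 0.132 and 0.181, and between 0.140 and 0.145 without 1 array. The median level of the 11145 genes, 9.46, became 9.69 without background correction. It became 9.02 with the mean over a gene's probes detected on at least 1 array, and stayed within the median SD otherwise. Levels of single genes held less well. Of 51 named genes detected on all arrays, 32 moved by more than their SD in the authors' values. With probes averaged 27 did, and in each other setting at most 7. The number of genes ranging by at least 1 changed most: 378 became 188 with an offset of 50, 70 without background correction and 63 in the authors' values, which differ in normalization too, and 9 of the 15 widest genes were then shared in the last 2 settings. Averaging probes left 7 of the 20 brightest genes in that set, the other settings 19 or 20. Of 84 lists and families with at least 5 members, 39 had a share above that of all genes, and 37 to 40 under the alternatives. At the limit of 0.01 the detected count moved by over 1.5 times in 7, all of few detected members. Olfactory receptors fell from 8 to 4, defensins from 2 to 0, FGF ligands from 5 to 3 and claudins from 5 to 3; without the second vehicle array 14 olfactory receptors counted. No paired analysis was possible because a single group was described and no gene was compared between groups. Depth is not defined for arrays; genes below about 5.7 cannot be told from background.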
